A study of Homo sapiens with 12 samples.

Results

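The comparison described here set K562 cells whose guide is aimed at CYRANO, a long non-coding RNA (sgCYRANO, 3 libraries), against K562 cells that received a non-targeting guide (sgNT, 3 libraries). It takes in every row of the table for these 6 libraries, which is 837 microRNAs of the 952 that occur in either table of the series. K562 is an established human line derived from chronic myeloid leukaemia in blast crisis, with erythroid and megakaryocytic features. Both groups were grown in RPMI medium with 10% serum and an antibiotic mix, and both carry a guide, so they differ in the guide sequence and not in having one. The labels do not name the enzyme used with the guides, and do not say whether the edited cells were a pool or a clone. The series also holds 3 libraries of a WT line and 3 of a ZSWIM8 KO line (genotype ZSWIM8-/-), both labelled as having received no guide. How the ZSWIM8 KO line was made is not given in the labels. CYRANO itself is not measured by small-RNA sequencing, so whether its level or its sequence was altered could not be checked in these data.

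A microRNA is loaded into an Argonaute protein and pairs, mainly through its seed (bases 2 to 8), with target RNAs that are then repressed. When a target pairs extensively with the 3' part of the microRNA as well as with the seed, the outcome can turn round and the microRNA itself is lost, which is called target-directed microRNA decay. CYRANO, annotated as OIP5-AS1, is a conserved RNA known to direct the decay of miR-7, and ZSWIM8 is the substrate receptor of a ubiquitin ligase that acts in this decay. The question put to the 6 libraries is which microRNAs change when CYRANO is targeted.

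The sequences on which the comparison turns are the guides, the strands of miR-7, and the places in CYRANO that match the miR-7 seed. In the sgCYRANO guide the capitals mark the bases that are identical to the miR-7-5p seed, in the microRNAs they mark the seed, and in the CYRANO sites they mark the seed match and the longest run of further bases that can pair with miR-7-5p. MicroRNA sequences are from RefSeq on GRCh38.p14 and CYRANO sequences from GENCODE on GRCh38, all written 5′ to 3′.
sgCYRANO guide: catctcaaaatGGAAGACat
sgNT guide: atcgtttccgcttaacggcg
miR-7-5p: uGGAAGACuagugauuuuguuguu
miR-7-1-3p: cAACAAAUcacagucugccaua
CYRANO site 1: tcagggtttaaaaAAAATGTCTTCCA
CYRANO site 2: AACAACAAAATCACcaatGTCTTCCA
CYRANO site 3: atatcctgAATatagtttGTCTTCCc

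The longest of 10 annotated OIP5-AS1 transcripts is 8829 bases long and lies on the + strand of chromosome 15. It matches the miR-7-5p seed at 3 places, all in exon 4, which start at transcript positions 724, 2887 and 8167. Site 2, at chr15:41300574-41300599, can pair with 22 of the 24 bases of miR-7-5p. Its pairing covers bases 1 to 8 and bases 11 to 24 of the microRNA, a run of 14 pairs beyond the seed, and leaves 2 unpaired microRNA bases opposite 4 unpaired bases of CYRANO. Beyond the seed, site 1 (chr15:41298411-41298436) had a longest run of 5 pairs and site 3 (chr15:41305854-41305879) one of 3. The sgCYRANO guide is complementary to chr15:41300590-41300609, transcript positions 2885 to 2904, and on the guide's own strand the match is followed by TGG. It therefore covers the seed match of site 2 and shares 10 bases with the 26 bases printed for that site. The mature miR-7-5p lies at chr9:83969811-83969834 in MIR7-1, and further hairpins are MIR7-2 at chr15:88611825-88611934 and MIR7-3 at chr19:4770670-4770779. Its partner strand miR-7-1-3p lies at chr9:83969771-83969792.

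No values of single libraries were used, since the table gives 1 fold change, mean abundance and test per microRNA. Group means in counts per 1000000 reads (CPM) were recovered from it, and fold changes were read as sgCYRANO over sgNT, the order in which the table is named, because its header does not give a direction. Read the other way, the values of the groups would change sides and miR-7-5p would be lower with sgCYRANO. Errors after ± are standard errors of the log2 fold change over 3 against 3 libraries, taken from the deposited p-values. Library totals read from the smallest steps in the means ran from 1540000 to 2300000 reads in sgNT and from 1670000 to 1850000 in sgCYRANO. A microRNA absent from a whole group could still have been present at up to 0.546 CPM in sgNT or 0.567 CPM in sgCYRANO, taking 3 reads over the group as the limit for counting error. Reads of near-identical family members (miR-17 and miR-106a, miR-20a and miR-20b, miR-92a and miR-92b) may have been shared between them, and their values are uncertain. Nothing in the labels says that the triplicates were separate cultures beyond calling them biological. For most microRNAs the p-values rest on a variance pooled over microRNAs, and do not measure each one's own spread between these libraries.

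miR-7-5p was the microRNA with the clearest change. Its group mean was 6102 CPM in sgNT and 34884 CPM in sgCYRANO, a difference of 28782 CPM. It went from 0.610% to 3.49% of all microRNA reads, and from rank 19 to rank 6 in abundance. This 5.72-fold rise, with a 95% interval of 5.07 to 6.45, stands as 2.52 ± 0.09 on the log2 scale in the authors' deposited table (edgeR quasi-likelihood test, adjusted p = 5.03e-174). That p rests on a variance shared between microRNAs. The same F read with the 4 residual degrees of freedom of the 6 libraries gave an adjusted p of 0.00597. The shared variance stays in that F, so neither p measures the spread of miR-7-5p between its own libraries. Of all 837 microRNAs miR-7-5p was the 1 that passed an adjusted p of 0.05, which is 0.119% of those tested, and 0 fell. At an unadjusted p under 0.05 the count was 49 (5.85%), of which 24 were higher and 25 lower.

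miR-7-1-3p, which is cut from the MIR7-1 hairpin together with a copy of miR-7-5p, did not pass, at 46.9 CPM in sgNT and 42.5 CPM in sgCYRANO. Its log2 fold change in the authors' deposited table was -0.14 ± 0.18 (edgeR, adjusted p = 0.980), and its 95% interval ran from 0.708-fold to 1.16-fold. The ratio of miR-7-5p to miR-7-1-3p thus went from 130.2 in sgNT to 820.9 in sgCYRANO. The 5p strand changed by 2.66 ± 0.20 more than the 3p strand on the log2 scale (normal test of the difference, adjusted p = 5.09e-37), the 1 of 200 pairs of arms past the threshold (0.5%). That test treated the arms as independent, although both were read in the same libraries. In the 69 other pairs with both arms at 10 CPM or more, both log2 fold changes were positive in 14, both negative in 22 and of opposite sign in 33, and the median absolute difference between arms was 0.14. miR-7-2-3p, the partner strand of the MIR7-2 hairpin, was not among the rows.

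**Figure D1:**
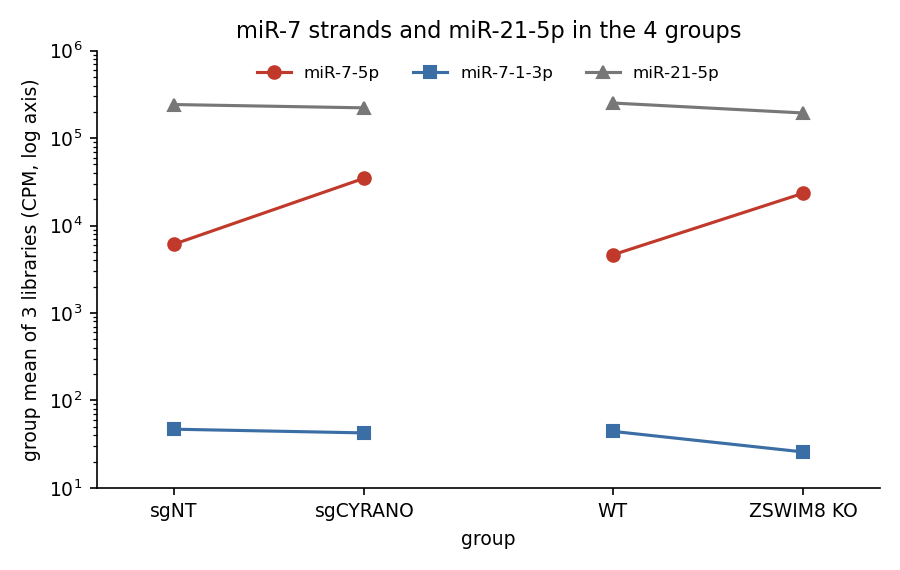
Group means of 3 libraries in CPM (vertical log axis) for miR-7-5p, miR-7-1-3p and the most abundant microRNA, miR-21-5p, in the 4 groups (horizontal axis), with a line joining the groups of 1 comparison. Error bars are not drawn because no values of single libraries were used; miR-7-5p stands at 6102 and 34884 CPM in sgNT and sgCYRANO while miR-7-1-3p stands at 46.9 and 42.5.

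The remaining members of the CYRANO circuit were miR-671-5p and miR-671-3p. miR-671-5p is known to direct slicing of the circular RNA Cdr1as, which carries many miR-7 sites. Its group means were 44.2 and 48.2 CPM, with 0.13 ± 0.18 in the authors' deposited table. The opposite strand miR-671-3p had 250.4 and 240.1 CPM, with -0.06 ± 0.12 in the authors' deposited table. Of the 4 measured members of this circuit, 1 rose and 3 did not pass.

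The gain in miR-7-5p reads also moved every other value a little, because CPM are scaled to the library total. The other 836 microRNAs together held 993894 CPM in sgNT and 965112 CPM in sgCYRANO, a common shift of -0.04 on the log2 scale that scaling alone gives. With CPM scaled to totals without miR-7-5p, 1 microRNA was still called.

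The abundant microRNAs of K562 moved by small amounts and none of them passed besides miR-7-5p. By the mean of both groups miR-7-5p was itself among the 10 most abundant, and the other 9 together held 77.5% of reads in sgNT and 74.3% in sgCYRANO. miR-21-5p, an oncogenic microRNA and the most abundant one, had 242547 and 222250 CPM, with -0.13 ± 0.07 in the authors' deposited table. miR-92a-3p, from the proliferative miR-17-92 cluster, had 166174 and 163382 CPM, with -0.02 ± 0.07 in the authors' deposited table. miR-148a-3p had 113806 and 105521 CPM, and miR-146b-5p 96841 and 99933 CPM. The next 5 were miR-26a-5p, miR-126-3p, miR-10a-5p, miR-20a-5p and miR-30d-5p, whose log2 fold changes in the authors' deposited table lay between -0.07 and 0.08. Among the 51 other microRNAs at 1000 CPM or more, the largest absolute log2 fold change was 0.32, against 2.52 for miR-7-5p.

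How large a change could have gone unseen depended on abundance. After miR-7-5p, a second call would have needed an unadjusted p under 0.000119. With the median standard error of each class, that was a 1.28-fold change at 1000 CPM or more (51 microRNAs without miR-7-5p), 1.38-fold at 100 to 1000 CPM (90), 1.81-fold at 10 to 100 CPM (157), 7.35-fold at 1 to 10 CPM (294) and 37.5-fold below 1 CPM (244). Of the 298 microRNAs at 10 CPM or more besides miR-7-5p, 0 changed 2-fold or more, 242 lay within 1.2-fold, 133 had a positive and 165 a negative log2 fold change, and the median was -0.02. Among those, 95% intervals lay wholly within 2-fold in either direction for 143 of 157 at 10 to 100 CPM, 90 of 90 at 100 to 1000 CPM and 50 of 51 above. Below 10 CPM, 142 of 538 microRNAs had a fold change of 2 or more and 0 passed, and changes smaller than the folds given for these classes were mostly not detectable at this depth.

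**Figure D2:**
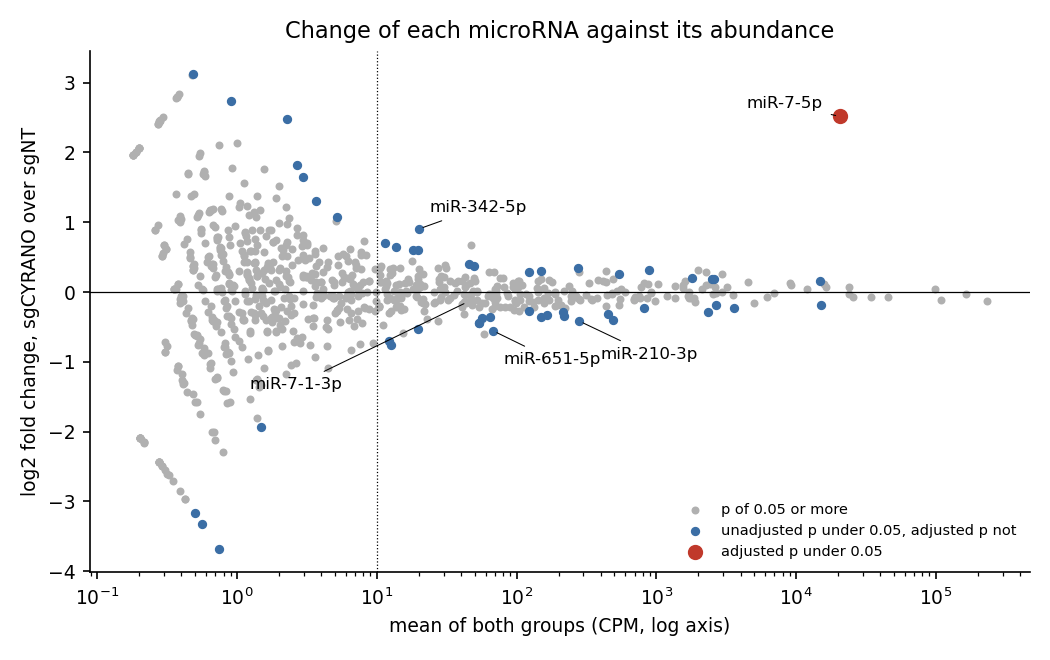
Log2 fold change of each of the 837 microRNAs (vertical axis) against the mean of both groups in CPM (horizontal log axis), with a dotted line at 10 CPM, red for an adjusted p under 0.05, blue for an unadjusted p alone under 0.05 and grey for the rest. The point of miR-7-5p lies at 2.52, and the other 298 microRNAs at 10 CPM or more lie within 2-fold of no change.

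The microRNAs nearest to the threshold came next, and none of them passed. Their mature sequences are shown because no 2 of them, and none of them and miR-7-5p, share a seed (capitals).
miR-210-3p: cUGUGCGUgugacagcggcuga
miR-651-5p: uUUAGGAUaagcuugacuuuug
miR-342-5p: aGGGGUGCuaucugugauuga
miR-9-5p: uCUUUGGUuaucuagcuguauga
miR-101-3p: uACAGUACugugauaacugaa
miR-210-3p, induced by hypoxia, lies at chr11:568112-568133 and had group means of 321.0 and 240.4 CPM. Its log2 fold change was -0.42 ± 0.12 in the authors' deposited table (edgeR, adjusted p = 0.140), the smallest adjusted p after miR-7-5p. miR-651-5p, at chrX:8126980-8127001, had 80.9 and 55.0 CPM and -0.56 ± 0.16 in the authors' deposited table (edgeR, adjusted p = 0.152). miR-342-5p, at chr14:100109673-100109693 within the gene EVL, had 13.9 and 26.2 CPM, or 0.90 ± 0.27 in the authors' deposited table (edgeR, adjusted p = 0.152). Its change exceeded that of miR-342-3p, the strand from the same hairpin, by 1.04 ± 0.30 on the log2 scale. That difference had an adjusted p of 0.0669 over 200 pairs of arms and 0.0234 over the 70 pairs with both arms at 10 CPM or more (normal test). miR-9-5p, best known from neurons, had 795.4 and 985.1 CPM with 0.31 ± 0.10 in the authors' deposited table, and its partner strand miR-9-3p had 110.8 and 135.1 CPM with 0.29 ± 0.14 (edgeR, adjusted p = 0.355 and 0.816). miR-101-3p, a repressor of the histone methyltransferase EZH2, had 2550 and 2100 CPM with -0.28 ± 0.09 in the authors' deposited table (edgeR, adjusted p = 0.355).

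Unadjusted p-values under 0.05 were spread unevenly over abundance. At 10 CPM or more, 38 of 299 microRNAs (12.7%) had one, 17 higher and 21 lower, and below 10 CPM 11 of 538 (2.04%). Beside those already named, the largest positive log2 fold changes of this kind at 10 CPM or more were 0.70 ± 0.35 for let-7d-3p, 0.64 ± 0.32 for miR-522-3p, 0.60 ± 0.28 for miR-1248 and 0.60 ± 0.27 for miR-372-3p in the authors' deposited table. Smaller ones were miR-98-5p at 0.40 ± 0.18 and miR-301a-5p at 0.38 ± 0.18 in the authors' deposited table. Among negative ones the largest were -0.76 ± 0.33 for miR-381-3p, -0.71 ± 0.34 for miR-624-5p and -0.54 ± 0.27 for miR-34a-5p in the authors' deposited table. They were followed there by miR-4677-3p and miR-181a-2-3p, both at -0.44, and miR-4521 at -0.40. Adjusted p-values of these 12 microRNAs were 0.631 or higher in the authors' deposited table (edgeR).

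Of 6 measured strands of other known decay substrates, 0 passed. They are microRNAs that other RNAs are known to direct to decay, such as miR-29b by NREP and miR-221 and miR-222 by BCL2L11. Their median log2 fold change was -0.17, beside 0.01 over all 837 microRNAs, and 5 of 6 were negative. Most of them lay at 100 to 1000 CPM, where 58 of all 90 microRNAs were negative and the median was -0.05. With totals taken without miR-7-5p, the median of the list was -0.13. miR-221-3p had 134.4 and 110.9 CPM, with -0.28 ± 0.14 in the authors' deposited table, and miR-222-3p 206.1 and 181.1 CPM, with -0.19 ± 0.12. miR-218-5p had 235.0 and 193.2 CPM with -0.28 ± 0.12 in the authors' deposited table, and miR-328-3p 315.9 and 306.8 CPM with -0.04 ± 0.11. miR-29b-3p stood at 27.1 and 24.3 CPM with -0.16 ± 0.23 in the authors' deposited table, and miR-335-3p, at 1.41 and 1.89 CPM, had 0.39 ± 0.86. The 2 measured strands that viral RNAs are known to degrade, miR-17-5p and miR-20a-5p, stood at 0.07 ± 0.08 and -0.03 ± 0.08 in the authors' deposited table.

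Of the 7 measured strands of the Xq26 cluster (miR-424, miR-503, miR-542 and miR-450), which act on cell cycle genes, 0 passed and the median was -0.11. The most abundant, miR-424-3p, had 516.9 and 524.7 CPM and 0.02 ± 0.11 in the authors' deposited table, and miR-450a-5p had 178.4 and 165.1 CPM and -0.11 ± 0.13. The extremes were miR-503-5p, with 64.2 and 49.3 CPM and -0.38 ± 0.17, and its partner strand miR-503-3p, with 1.68 and 2.61 CPM and 0.60 ± 0.77 in the authors' deposited table.

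Of 7 measured p53-linked strands 0 passed, the median was -0.23 and 6 were negative. That median is the value of miR-143-3p (-0.23 ± 0.40), a strand at 8.95 and 7.60 CPM. At 10 CPM or more, 165 of all 298 microRNAs besides miR-7-5p were negative. The transcription factor p53 induces the miR-34 and miR-192 families, and K562 is known to lack functional p53. miR-34a-5p was at 23.5 and 16.2 CPM, while the more abundant miR-192-5p, at 1735 and 1660 CPM, had -0.06 ± 0.09 and miR-194-5p -0.04 ± 0.11 in the authors' deposited table. The highest of the list was miR-145-5p, at 0.01 ± 0.32 in the authors' deposited table. Of the 7 strands linked to DNA repair and stress responses 0 passed, with a median of -0.08. Besides miR-21-5p, the list's values in the authors' deposited table included -0.08 ± 0.09 for miR-182-5p, 0.18 ± 0.09 for miR-24-3p (2412 and 2740 CPM) and -1.75 ± 1.39 for the scarce miR-155-5p. The second hypoxia strand, miR-210-5p, was at 0.708 and 0.736 CPM.

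Proliferation families did not pass. The 11 measured strands of miR-17-92 and its paralogous clusters had a median log2 fold change of -0.02, which turned to 0.02 with totals taken without miR-7-5p. miR-25-3p was the highest at 0.12 ± 0.08 and the scarce miR-20b-5p the lowest at -1.26 ± 0.96 in the authors' deposited table. In the let-7 family, which restrains proliferation, 0 of 7 measured strands passed, 6 were positive and the median was 0.08. Its members let-7a-5p and let-7c-5p were not among the rows. At 10 CPM or more, 133 of all 298 microRNAs besides miR-7-5p were positive. let-7f-5p, the most abundant of those measured, had 3152 and 3304 CPM with 0.07 ± 0.09 in the authors' deposited table, let-7g-5p had 0.01 ± 0.10, and let-7b-5p was the lowest at -0.05 ± 0.20.

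Of 27 measured strands that mark lineages 0 passed. All 5 erythroid strands were present, with miR-486-5p at 11701 and 12031 CPM and miR-451a, which needs no Dicer for its maturation, at 774.9 and 848.7 CPM. Their log2 fold changes in the authors' deposited table ran from -0.12 ± 0.15 for miR-144-3p to 0.13 ± 0.10 for miR-451a, with 0.09 ± 0.12 for miR-144-5p, 0.04 ± 0.08 for miR-486-5p and -0.01 ± 0.11 for miR-486-3p. The 8 megakaryocytic and myeloid strands had a median of -0.04 and ran from miR-99a-5p at -0.14 ± 0.18 to miR-223-5p at 0.29 ± 0.42 in the authors' deposited table. For the lymphoid strands miR-142-3p, miR-142-5p and miR-342-3p the values were 0.07 ± 0.09, -0.09 ± 0.10 and -0.13 ± 0.15 in the authors' deposited table. Of 16 strands that mark tissues other than blood, 11 were measured. Their summed level was 1015 CPM in sgNT and 1227 CPM in sgCYRANO, and it consisted mainly of miR-9-5p and miR-9-3p. The next most abundant, miR-200c-3p, stood at 68.8 and 70.8 CPM, the liver microRNA miR-122-5p at 1.98 and 2.08 CPM, and the extremes were miR-203a-3p at 1.72 ± 1.36 and miR-499a-5p at -0.47 ± 0.35 in the authors' deposited table.

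**Figure D3:**
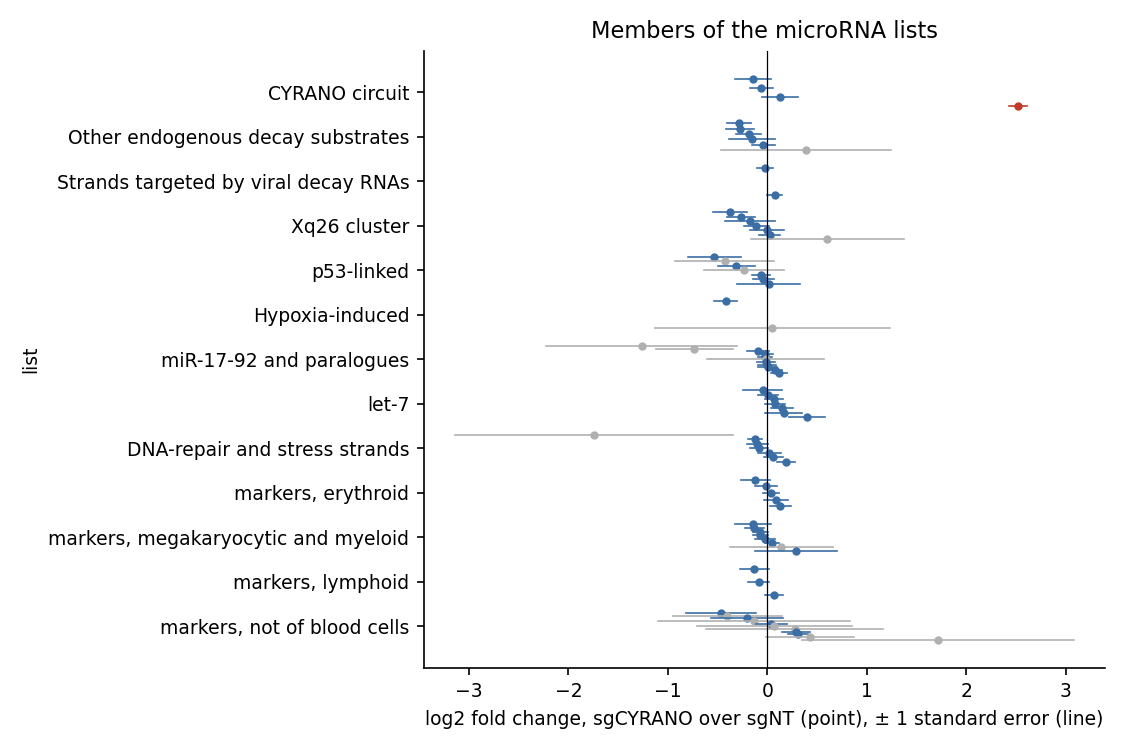
Log2 fold change (horizontal axis, points) with 1 standard error on either side (lines) for every measured member of 13 lists (vertical axis), with red for an adjusted p under 0.05, blue for other members at 10 CPM or more and grey for members below 10 CPM. miR-7-5p at 2.52 is the 1 red point, and the widest lines belong to members below 10 CPM.

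Pairing with CYRANO was then compared across the measured microRNAs. A mature sequence was found in RefSeq for 762 of the 837. The stretch of CYRANO that pairs with bases 2 to 8 occurred at least 1 time in the 8829-base transcript for 333 of them, at 538 places in all. A seed match is a match of letters and does not show that the microRNA binds there. At each place the longest run of uninterrupted pairs with the rest of the microRNA was counted, allowing up to 8 unpaired bases of CYRANO next to the seed match. The median was 3, site 2 of miR-7-5p had 14, and the next longest was 8, for miR-561-5p, a microRNA at 5.51 and 4.46 CPM with -0.30 ± 0.52 in the authors' deposited table. A run of 7 was found for miR-12114, at 1.54 and 1.48 CPM. At 10 CPM or more the longest run of another microRNA was 6, and the most abundant of those with it, miR-92a-3p, is printed with its CYRANO site, in which capitals mark bases that can pair.
miR-92a-3p: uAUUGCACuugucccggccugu
CYRANO site of miR-92a-3p: aagttaaaaCCGGGAtatGTGCAATA
The site of miR-92a-3p lies at chr15:41300486-41300511, and the values of this microRNA, given above, did not pass.

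**Figure D4:**
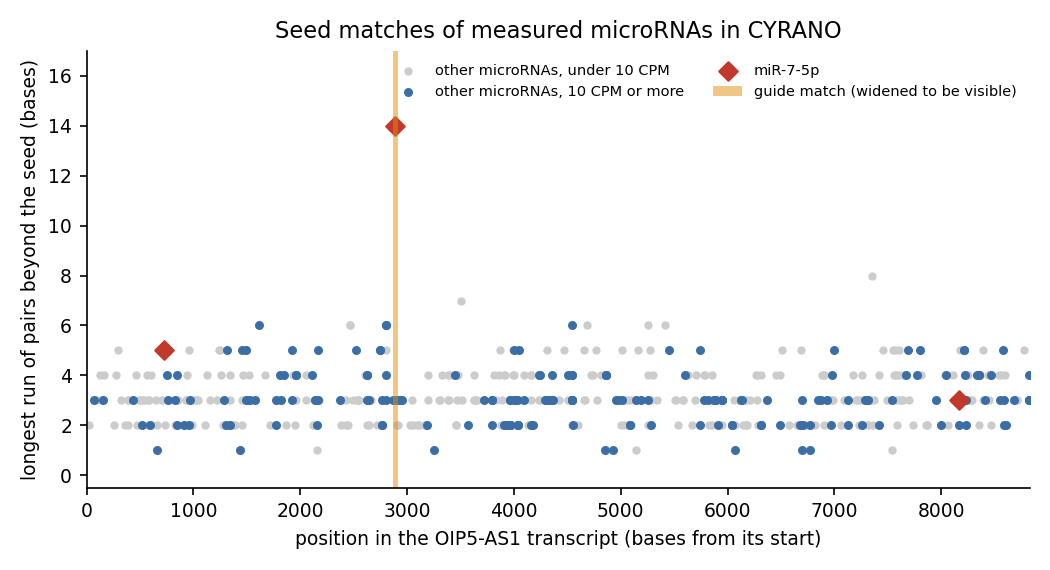
Each of the 538 seed matches is drawn at its position in the OIP5-AS1 transcript (horizontal axis, bases from the start) against the longest run of pairs beyond the seed (vertical axis, bases), in blue for microRNAs at 10 CPM or more and grey for others. Diamonds mark the 3 places of miR-7-5p, of which the one under the guide (shaded, widened to be visible) has a run of 14 bases, while all others have 8 or fewer.

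Strands with and without seed matches in CYRANO were then compared. Of 121 other microRNAs at 10 CPM or more with 1 or more matches, 0 passed and the median log2 fold change was -0.03, beside -0.02 for the 143 with 0 matches. Unadjusted p-values under 0.05 were found for 9.92% of the former and 15.4% of the latter. Of the 17 microRNAs at 10 CPM or more with 3 or more matches, 9 were positive and 8 negative, miR-7-5p included. Strands with more matches than the 3 of miR-7-5p included miR-30e-5p with 4 (3847 and 3286 CPM, -0.23 ± 0.09 in the authors' deposited table, edgeR, adjusted p = 0.631). Others with 4 included miR-30e-3p (0.25 ± 0.35) and miR-452-5p (-0.15 ± 0.09) in the authors' deposited table. The largest number was 5, for miR-4677-5p, with 0.35 ± 0.36 in the authors' deposited table. These strands were chosen after their values were seen, for their number of matches.

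Among the 762 microRNAs with a sequence, no other carried the seed of miR-7-5p, nor its bases 2 to 7 at the same place. They held 18 groups of 3 or more with a shared seed, 72 strands in all, and 0 of these groups held a strand that passed. In the 10 groups with 3 or more strands at 10 CPM or more, the log2 ratio of summed CPM ran from -0.11 to 0.37. The lowest was the group of miR-148a-3p, miR-148b-3p and miR-152-3p, at 116696 and 108062 CPM in sum. The highest was the group of miR-372-3p and its relatives, embryonic microRNAs, at 39.2 and 50.8 CPM. The group of miR-92a-3p, miR-25-3p and 3 further strands summed to 184463 and 183072 CPM.

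The same microRNAs were then set beside the comparison of ZSWIM8 KO with WT, which shares no library with this one. Its header gives no direction either, and its fold changes were read as ZSWIM8 KO over WT from the order of naming. Rises, falls and differences between the comparisons depend on that reading. There miR-7-5p had 4617 and 23494 CPM, or 2.35 ± 0.14 in the authors' deposited table. With sgCYRANO its change was larger by 0.17 ± 0.17, with a 95% interval of -0.16 to 0.49 (normal test, adjusted p = 0.766), which leaves room for a difference of either sign. miR-7-1-3p differed by 0.64 ± 0.34 (adjusted p = 0.358, normal test). In the authors' deposited table of the ZSWIM8 comparison 86 of 868 microRNAs passed (9.91%), and all 86 were among the rows of the CYRANO comparison. Of the 85 besides miR-7-5p, 0 passed in sgCYRANO, and 11 (12.9%) had an unadjusted p under 0.05. In the CYRANO comparison that share was 5.85% over all 837 microRNAs and 12.7% over the 299 at 10 CPM or more.

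With ZSWIM8 KO 41 rose (4.72%) and 45 fell (5.18%). The 40 that rose besides miR-7-5p had a median log2 fold change of 0.72 there and 0.04 in sgCYRANO, where 22 were positive and 18 negative. The 45 that fell had -0.98 there and -0.02 in sgCYRANO, where 20 were positive and 25 negative. Both sets were picked by their ZSWIM8 values, so the choice itself set their medians apart from 0 in that comparison. The difference between both comparisons was tested for the 753 microRNAs in both tables, and 50 passed (6.64%). Of these 50, 47 were calls of the ZSWIM8 comparison (25 rises and 22 falls), beside 86 such calls among all 753. The ZSWIM8 values enter both the calls and the difference, so this overlap was favoured by how the difference is formed. Of the 50, 22 were higher and 28 lower with sgCYRANO than with ZSWIM8 KO. With both tables centred on their medians 52 passed and the split turned, to 37 higher and 15 lower.

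Among the largest differences were those of miR-221-3p and miR-222-3p, which repress the cell cycle inhibitor p27. They fell by 4.76 and 4.88 on the log2 scale with ZSWIM8 KO in the authors' deposited table, and differed between the comparisons by 4.49 ± 0.50 and 4.69 ± 0.59 (normal test, adjusted p = 3.30e-16 and 8.01e-13). miR-1246 had 204.3 and 189.6 CPM in sgNT and sgCYRANO against 325.4 and 84.5 CPM in WT and ZSWIM8 KO, a difference of 1.84 ± 0.23 (normal test, adjusted p = 8.01e-13). For miR-92a-1-5p the difference was 1.25 ± 0.16, for miR-182-5p 0.96 ± 0.15, and for miR-30d-5p, which rose with ZSWIM8 KO, -0.78 ± 0.12 (normal test, adjusted p = 8.01e-13, 4.54e-08 and 4.25e-09). Among ZSWIM8 calls at 10 CPM or more in both tables, the largest rises besides miR-7-5p were compared too. They were picked for their ZSWIM8 values, which also enter the difference, so its direction was favoured by the choice. The change with sgCYRANO minus that with ZSWIM8 KO was -1.67 ± 0.43 for miR-542-3p, -1.17 ± 0.35 for miR-1307-5p, -1.14 ± 0.30 for miR-9-3p and -1.32 ± 0.35 for miR-1301-3p (normal test, adjusted p = 0.0027, 0.0203, 0.00322 and 0.0042). For miR-99a-5p and miR-215-5p, picked in the same way for their falls with ZSWIM8 KO, it was 1.21 ± 0.34 and 1.24 ± 0.34 (normal test, adjusted p = 0.01 and 0.00777). Across the 293 microRNAs at 10 CPM or more in both tables besides miR-7-5p, the standard deviation of the log2 fold changes was 0.22 with sgCYRANO and 0.72 with ZSWIM8 KO, and Pearson's r between both was 0.16. The points share the line and the library protocol, and no p is attached to that r.

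**Figure D5:**
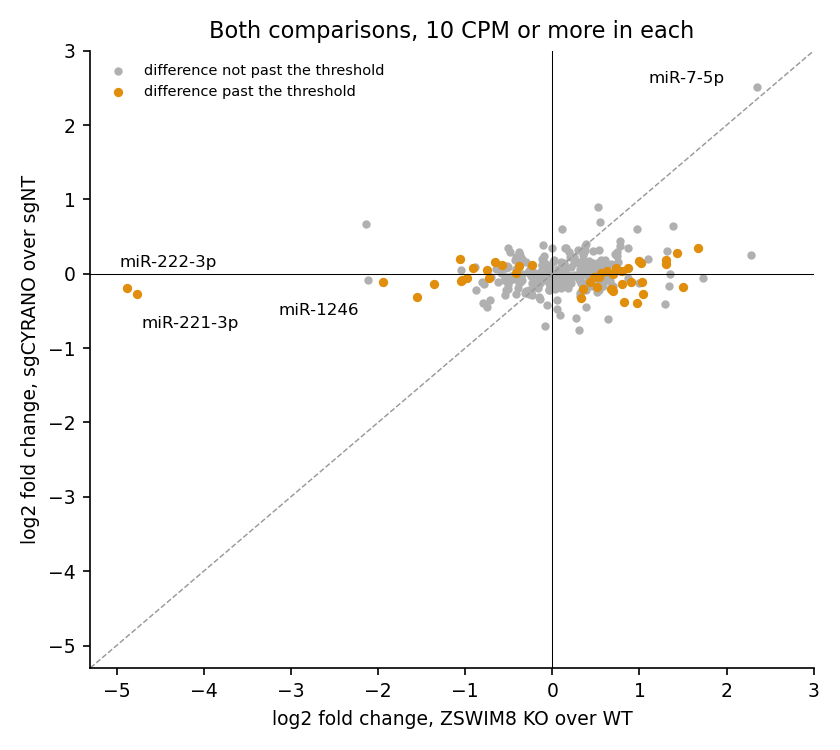
Log2 fold change with sgCYRANO over sgNT (vertical axis) against that with ZSWIM8 KO over WT (horizontal axis) for the 294 microRNAs at 10 CPM or more in both tables, with a dashed line of equal change and orange for a difference past an adjusted p of 0.05. miR-7-5p lies near the dashed line at 2.52 and 2.35, whereas miR-221-3p and miR-222-3p lie at -0.28 and -0.19 on the vertical axis and at -4.76 and -4.88 on the horizontal one.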

How the data were processed

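Small RNA of 12 libraries in 4 groups of 3 was sequenced, per the labels' protocols after miRNeasy extraction and a NEBNext library kit. Per the submitters' processing notes, edgeR, featureCounts, STAR, FastQC 0.11.2, bcl2fastq and hg19 were used, with no roles or order. The handling of reads that map to several copies is not given in these sources. The authors deposited 1 table per comparison, holding log2 fold changes, mean log2 CPM, F statistics (taken as a score), p-values and adjusted p-values, per the file headers. Benjamini-Hochberg adjustment over all rows returned the deposited adjusted p-values, so the rows are all microRNAs tested. Group means were computed from the log2 values (prior counts of 0.125 and 2) and summed to 999996 CPM in each group. Totals were read from the steps of means below 1.5 CPM, which 3 steps a group accounted for within 0.0015 CPM in 304 of 304 and 276 of 276 cases, and cannot be tied to replicates. From F and p, the most frequent denominator degrees of freedom were 3348, or 4 residual degrees times 837 microRNAs, so the variance was mostly shared between microRNAs and errors do not show each one's own spread. Standard errors divide each log2 fold change by the normal deviate of its p. Differences between arms and between comparisons used a normal test with Benjamini-Hochberg adjustment. For arms, which share their libraries, the errors were combined as if independent. On simulated libraries of known change, 94.6% of intervals held the truth over 299 microRNAs. There 11 of 600 unchanged microRNAs were called in the CYRANO comparison and 9 of 551 equal ones in the difference between comparisons. Every simulated microRNA had the same dispersion and the test was given that variance, so a share near 95% was built in. The simulation checked the calculation and does not show that the deposited errors are right. Named microRNAs are the miR-7 strands, the 5 smallest p after miR-7-5p, the 8 largest rises and falls with unadjusted p under 0.05 at 10 CPM or more, the 10 most abundant, members of the lists (all, or 4 where more than 6 were measured), the 5 largest ZSWIM8 rises and falls, the 6 clearest differences, and neighbours and seed matches of CYRANO. Members and lists were chosen with earlier results of these data known. Python 3.11.15, scipy 1.17.1 and pandas 2.3.3 were used.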

Additional observations from a re-analysis of the deposited data

How the results depend on the processing

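The table holds no values of single libraries, which limits what could be varied. No paired analysis was possible because the columns carry no replicate, and leaving out libraries was not run for the same reason. miR-7-5p was the 1 call under all 6 alternatives: adjustment over microRNAs at 1 or at 10 CPM or more, F read with 4 denominator degrees of freedom, centring on the median, CPM scaled without miR-7-5p, and Benjamini-Yekutieli adjustment. At its unadjusted p of 6.01e-177 (edgeR) these settings could hardly have removed that call, and F read with 4 degrees kept the shared variance. They could have added a second call, and none was added. The difference between both comparisons passed for 50 microRNAs, and for 56 with errors from F, 58 at 10 CPM or more and 52 after centring (22 higher and 28 lower became 37 and 15). Of the arm differences 2 passed, miR-7 and miR-342, with errors from F, and the same 2 at 10 CPM or more, where fewer pairs were tested. Scaling without miR-7-5p turned the sign of 5 uncalled changes, to 0.018 for miR-92a-3p, 0.0164 for miR-20a-5p, 0.00018 for miR-328-3p, 0.0027 for miR-194-5p and 0.0302 for miR-486-3p. The last was turned to 0.00996 by centring too, and 70 and 74 of 75 named values kept sign and call under these scalings. Depth limits changes below 10 CPM.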

Other observations

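MicroRNAs made from 1 stretch of the genome were also viewed together, by joining hairpins on 1 strand with gaps of at most 10 kb. Only strands with a mature entry in the RefSeq table could be placed, so that clusters may lack measured strands, as the one on chromosome 19 lacks miR-522-3p. Counting those placed, 8 clusters had 4 or more strands at 10 CPM or more. None of their placed strands passed. Median log2 fold changes ran from -0.11 for the Xq26 cluster (chrX:134540185-134546711) to 0.12 for the cluster from MIR532 to MIR502 (chrX:50003148-50014683, 6 strands). In the miR-17-92 cluster itself (chr13:91350605-91351391) 9 strands had a median of 0.06, from -0.03 for miR-20a-5p to 0.20 for miR-92a-1-5p. Positions are those of GRCh38.

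Around OIP5-AS1 (chr15:41282697-41313338), 7 hairpins are annotated within 5 Mb, and 3 of their 9 listed strands were measured, all below 10 CPM. In the authors' deposited table miR-627-3p, 0.886 Mb away, had -0.22 ± 0.41 and miR-627-5p -0.29 ± 1.02, and miR-147b-3p, 4.12 Mb away, had 0.10 ± 0.52. The means of miR-627-3p were 8.65 and 7.44 CPM.

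At 10 CPM or more, 6 of 299 microRNAs had a standard error, taken with the normal deviate of p, 2 times or more that of microRNAs of like abundance. They were chosen after their values were seen. miR-100-5p (36.7 and 58.4 CPM) had 0.67 ± 1.19 in the authors' deposited table, an error 6.11 times that of its neighbours, and miR-223-5p (2037 and 2486 CPM) 0.29 ± 0.42, 4.02 times. The others were miR-30e-3p, miR-1303, miR-1307-3p and miR-196a-5p, at 3.44, 3.35, 2.96 and 2.10 times. Their p-values imply about 4 degrees of freedom, or 7.41 for miR-196a-5p, where the most frequent value was 3348. For these strands the deposited test rests mainly on their own 6 libraries. The normal deviate gives errors that are too large at so few degrees of freedom, so their errors and ratios are overstated. The 2.10 of miR-196a-5p lies near the threshold of 2 and may not hold.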
